A study of Mus musculus with 5 samples.

Results

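Ccl5, Nkg7 and Ifng are 3 effector genes of T cells, out of 10291 genes listed in at least 1 of 4 count tables. Their rows were taken by gene symbol, summed over the barcode columns of each table and scaled to a library total of 1000000 (CPM). They were chosen by their levels in these same libraries, with results already known, so the levels below are a description and carry no test. The study measured sorted CD4 T cells of mice with colitis, from the colon or from a lymph node, with or without near-infrared light given by a 980 nm laser at 1.22 W and 80% duty on a 4 cm² spot, in 5-minute sessions repeated at intervals of 2 days. There is 1 library for each of 4 groups: lymph node (LN) control, LN light, colon control and colon light. Strain, age, the way colitis was induced, the number of mice per library and any sham exposure of the controls are not given in the sources used here. A pooled sample that held only a barcode sheet entered no comparison. That sheet names 16 barcodes by tissue, light and replicate. Of these, 3 in the colon light library carry the name of its own group and 13 those of other groups. In each lymph node library 5 carry the name of its own group and 11 those of other groups. The colon control library held 0 of them.

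Ccl5 encodes a secreted chemokine (RANTES) that draws T cells and myeloid cells to sites of inflammation, and its transcript accumulates late after T-cell activation and persists in memory cells. Nkg7 encodes a membrane protein of cytotoxic granules that takes part in granule release, in cytotoxic lymphocytes and in type 1 helper T (Th1) cells. Ifng encodes interferon-gamma, the defining cytokine of Th1 cells, which signals through the receptor chains Ifngr1 and Ifngr2 and the kinases Jak1 and Jak2 and is prominent in inflamed gut. All 3 genes are expressed by CD8 T cells and natural killer cells as well as by Th1-type CD4 cells.

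The 3 genes lie on different chromosomes of mm10 (GENCODE M21). Ccl5 is at chr11:83525778-83530518 on the minus strand, with 3 exons. Nkg7 is at chr7:43437073-43438249 on the plus strand, with 4 exons. Ifng is at chr10:118441046-118445892 on the plus strand, with 4 exons, and overlaps the unnamed gene model Gm49751 on the same strand, so reads in the overlap could be counted for either. RefSeq (GRCm38.p6) gave an upstream window of 250 bases for 2 of the 3 genes, Nkg7 and Ifng. These stretches are shown because they are the DNA just before the starts of 2 genes whose levels are set side by side below. They are printed 5′ to 3′ on the plus strand, with matches to the searched motifs in capitals. For Nkg7 the run is chr7:43436888-43437072, the 185 bases of the window before the first exon annotated in GENCODE, and for Ifng it is chr10:118440796-118441045.
Nkg7: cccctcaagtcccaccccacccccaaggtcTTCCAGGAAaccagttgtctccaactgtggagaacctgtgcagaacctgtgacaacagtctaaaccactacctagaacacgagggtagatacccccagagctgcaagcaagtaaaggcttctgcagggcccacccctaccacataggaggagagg
Ifng: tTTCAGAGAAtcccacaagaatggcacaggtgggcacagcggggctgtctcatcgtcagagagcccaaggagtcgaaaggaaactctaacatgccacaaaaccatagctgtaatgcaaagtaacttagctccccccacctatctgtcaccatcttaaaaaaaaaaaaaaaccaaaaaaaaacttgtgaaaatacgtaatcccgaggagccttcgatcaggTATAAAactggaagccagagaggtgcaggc

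Both runs hold the letters TTCNNNGAA, the core of the element bound by STAT factors, at -220 to -212 from the RefSeq start in Nkg7 and at -249 to -241 in Ifng. These letters occur on either strand in 7.02% of 32841 RefSeq windows of the same length. Ifng also holds the TATA box letters TATAAA at -30 to -25, which 12.4% of windows have. The 65 further bases of the Nkg7 window, which lie within its first GENCODE exon and are not printed, hold the T-box letters AGGTGTGA at -14 to -7 (1.12% of windows) and CCAAT at -63 to -59 (33.9%). The AP-1 letters TGANTCA (6.75%) and the core of the interferon-stimulated response element (2.98%) matched neither window. A match is a match of letters and no evidence of binding.

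The tables differed in depth and in content, and this touches every level below. Named genes summed to 433663 to 1959269 counts per library. Barcode columns of a table are overlapping sums of the same molecules. The summed counts were therefore divided by a size-weighted average of the columns per molecule, in which molecules counted in many columns weigh more. This gave effective numbers of independent counts, here called molecule-equivalents. They were 6172, 39882, 11477 and 20401 in the colon control, colon light, LN control and LN light libraries. All intervals are 95% intervals and take in counting error only, not differences between mice. They are exact for molecule-equivalents, except those of changes in within-library ratios and of differences between log2 ratios, which are normal approximations. A gene with 3 molecule-equivalents, used as the floor, stands at 486, 75.2, 261 and 147 CPM in the same order. The colon control stood apart: its rows of Cd3d, Cd3e, Cd3g and Cd4 repeated those of another table and were left out, it shared 4 to 5 barcodes with any other library where the others shared 373 to 374, and 9 T-cell reference genes (Trac, Trbc1, Trbc2, Cd247, Lat, Lck, Thy1, Cd2 and Cd5) came to only 2.65 molecule-equivalents in it, against 98.5 to 139.6 elsewhere. For Ccl5, Nkg7 and Ifng the rows showed no such repetition between tables, with correlations by column position from -0.04 to 0.09.

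Ccl5 was counted in all 4 libraries. It summed to 456 counts in the colon control, 10855 in colon light, 24994 in the LN control and 10489 in the LN light library. As CPM these were 1052 (405 to 2225), 5540 (4834 to 6321), 25735 (22884 to 28844) and 9814 (8501 to 11271). The order was LN control, LN light, colon light and colon control, and no interval overlapped that of its neighbour in the order. The chemokine took 2.57% of all counts of the LN control library, 0.981% in the LN light, 0.554% in the colon light and 0.105% in the colon control.

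Nkg7 was highest after light in the lymph node. It summed to 85 counts in the colon control, 1250 in colon light, 1008 in the LN control and 1501 in the LN light library. Its levels were 196 CPM (8.56 to 961), 638 CPM (415 to 939), 1038 CPM (535 to 1817) and 1404 CPM (938 to 2021). The LN control interval overlapped those of both neighbours in the order, the LN light and the colon light library. The colon control value is under that library's floor and rests on 1 recovered molecule.

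Ifng summed to 155 counts in the colon control, 863 in colon light, 893 in the LN control and 507 in the LN light library. Its levels were 357 CPM (50.2 to 1223), 440 CPM (259 to 700), 919 CPM (451 to 1665) and 474 CPM (224 to 881). The cytokine transcript was highest in the LN control, and all 4 intervals overlapped one another. The colon control value is again under the floor.

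**Figure D1:**
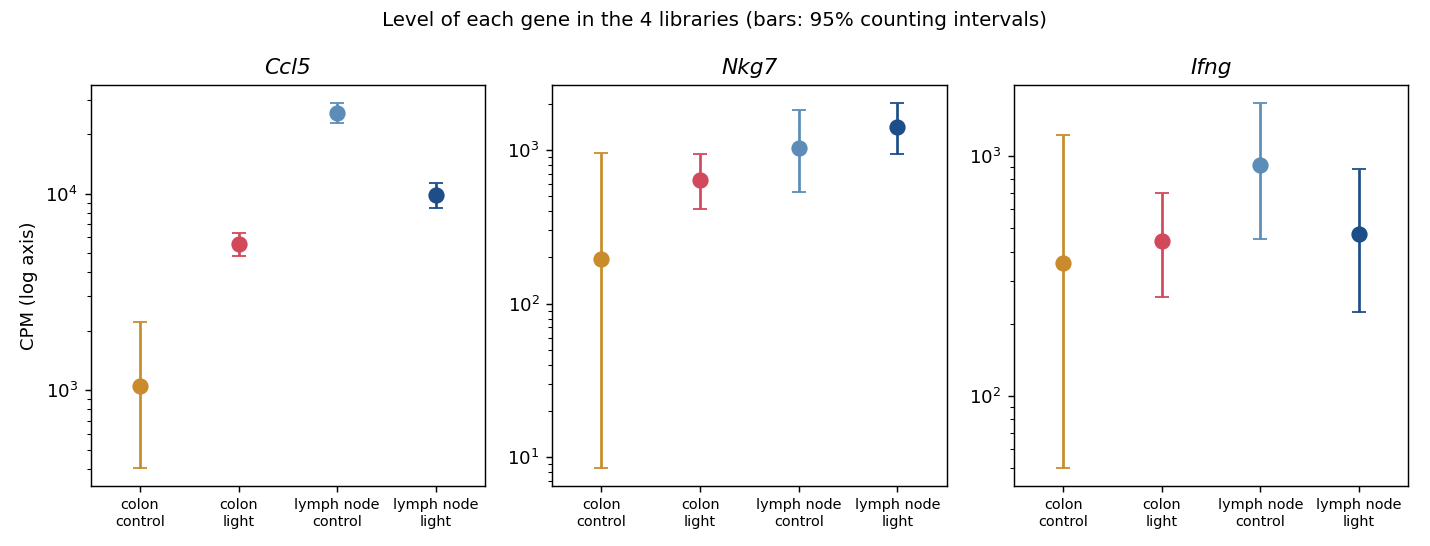
Levels of Ccl5, Nkg7 and Ifng in CPM (log axis) in the 4 libraries, 1 point per library, with bars for the 95% counting interval. Ccl5 ranges from 1052 to 25735 CPM without overlap between neighbouring libraries, whereas the Ifng intervals all overlap and only Nkg7 is highest in the LN light library.

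Because molecules are shared between columns, the number of distinct molecules was also recovered from patterns of columns common to several genes. Nkg7 came to 1, 25.7, 14 and 42 molecules and Ifng to 2, 16, 10.7 and 9 molecules in the colon control, colon light, LN control and LN light libraries. Ccl5 came to 9, 262.5, 304.8 and 265 molecules. The fractional values of Nkg7 in the colon light and of Ccl5 and Ifng in the LN control come from rows that the patterns missed by 1.07%, 0.0319% and 2.15%, and the Ccl5 row of the colon light library allowed from 261 to 269 molecules. Nkg7 and Ifng in the lymph node thus rest on 9 to 42 molecules per library, and Ccl5 on 265 or more.

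Light against control in the lymph node sets 1 library beside 1 other, so light cannot be told apart from other differences between them. The 3 genes did not share a direction. Ccl5 was lower in the light library by a log2 ratio of -1.39 (-1.66 to -1.13), which is 2.62-fold, or by -0.91 with median-of-ratios scaling, under 2-fold, while the median over 181 genes with at least 20 molecule-equivalents was -0.16. Nkg7 was at 0.43 (-0.58 to 1.55) and Ifng at -0.91 (-2.38 to 0.45), both with intervals that included 0. Past 2-fold, 1 of the 3 genes was lower and none was higher, beside 9.94% of all tested genes in either direction, 5.52% lower and 4.42% higher. In simulated libraries with 200 genes raised 2- or 4-fold, 9.26% of tested genes that were not raised passed 2-fold. That share holds counting error together with the shift that the raised genes give to all others through the library total.

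The Ccl5 difference in the lymph node rested in large part on 71 barcode columns of the control library. Over the 382 columns of that table Ccl5 took from 0.280% to 8.15% of a column's counts, with a median of 1.93%. The 71 columns held 6.97% or more each, with 154 to 184 Ccl5 counts, and the other 311 held 5.28% or less. In the LN light library the share ran from 0.0650% to 2.97% over 379 columns, and in the colon light library from 0.0745% to 1.31% over 382. These 71 columns were also near-equal to one another over other genes, forming 1 of 7 blocks of at least 20 such columns (correlation of at least 0.8, with Ccl5, Nkg7 and Ifng left out of the grouping). The median Ccl5 share of that block was 7.76%, and those of the other 6 blocks ran from 0.334% to 3.54%. In the LN light library 9 blocks had medians from 0.136% to 2.24%, so the blocks of both libraries overlapped.

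Without those 71 columns Ccl5 in the LN control fell from 25735 to 15423 CPM, and the light to control log2 ratio became -0.65, under 2-fold. Leaving out any other block of the control kept the ratio between -1.66 and -1.35, and leaving out each block of the light library gave -1.54 to -1.23. The sign was negative in all of these. Nkg7 stayed between 0.33 and 0.64 and Ifng between -1.08 and -0.52 when each block was left out. In the 71-column block Nkg7 took a median of 0.132% of a column's counts and Ifng 0.0441%, both inside the range of the other blocks of that library. The barcode sheet gives group and replicate names for 16 columns of this library, 11 of them named for other groups. No source used here says what the remaining columns stand for, and whether the block is 1 group of cells was not tested.

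**Figure D2:**
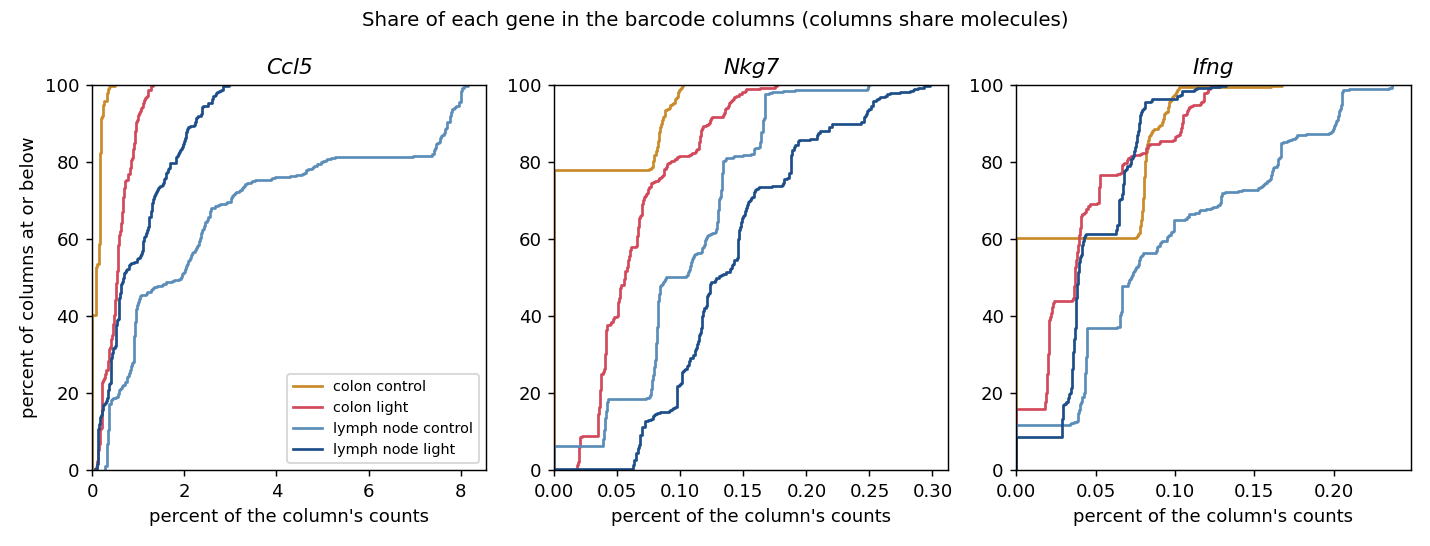
Cumulative share of barcode columns (vertical axis, percent) against the percent of a column's counts taken by each gene, with 1 line per library; columns share molecules and are not replicates. The LN control line for Ccl5 is flat between 5.28% and 6.97%, with 71 columns beyond the gap, while no light library passes 2.97%.

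Ratios within a library do not depend on its total, and they set the 3 genes against each other. For every 100 Ccl5 counts there were 18.6 Nkg7 counts (0.698 to 132) in the colon control, 11.5 (7.32 to 17.4) in colon light, 4.03 (2.05 to 7.17) in the LN control and 14.3 (9.32 to 21.2) in the LN light library. The LN control was low and its interval did not overlap that of either light library. From control to light in the lymph node this ratio was higher by 1.83 on the log2 scale (0.82 to 2.84), and by 1.79 when each recovered molecule was counted once. Without the 71-column block the control ratio was 6.37, and leaving out each block of the light library gave 13.3 to 15.5. No interval is given without that block, so the lack of overlap holds only with all columns kept. Counts are not divided by transcript length, so these ratios compare libraries and do not rank the genes.

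Ifng per 100 Ccl5 counts was 34.0 (3.91 to 175) in the colon control, 7.95 (4.59 to 12.9) in colon light, 3.57 (1.73 to 6.56) in the LN control and 4.83 (2.25 to 9.16) in the LN light library. All 4 intervals overlapped. The change from control to light in the lymph node was 0.44 (-0.85 to 1.72), an interval that includes both 0 and a 2-fold change. It was -0.04 with each recovered molecule counted once, and without the 71-column block the LN control ratio was 6.56, above that of LN light, so no direction holds for Ifng.

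Against the 9 T-cell reference genes, Ccl5 stood at 299.8 counts per 100 reference counts in the LN control (238 to 380), 143 in the LN light (115 to 179), 209 in the colon light (165 to 267) and 245 in the colon control (51.5 to 1702). The LN control was above the LN light library without overlap, a log2 change of -1.06 (-1.52 to -0.61) from control to light. Without the 71-column block the LN control stood at 169.9, so that most of this difference was in those columns too. Nkg7 was at 12.1 in the LN control, 20.5 in the LN light, 24.1 in the colon light and 45.7 in the colon control. Ifng was at 10.7, 6.93, 16.6 and 83.3 in the same order. From control to light in the lymph node Nkg7 changed by 0.76 (-0.28 to 1.81) and Ifng by -0.63 (-1.94 to 0.68), and both intervals included 0. In bulk values of this kind, fewer cells that express a gene and less RNA per cell cannot be told apart.

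**Figure D3:**
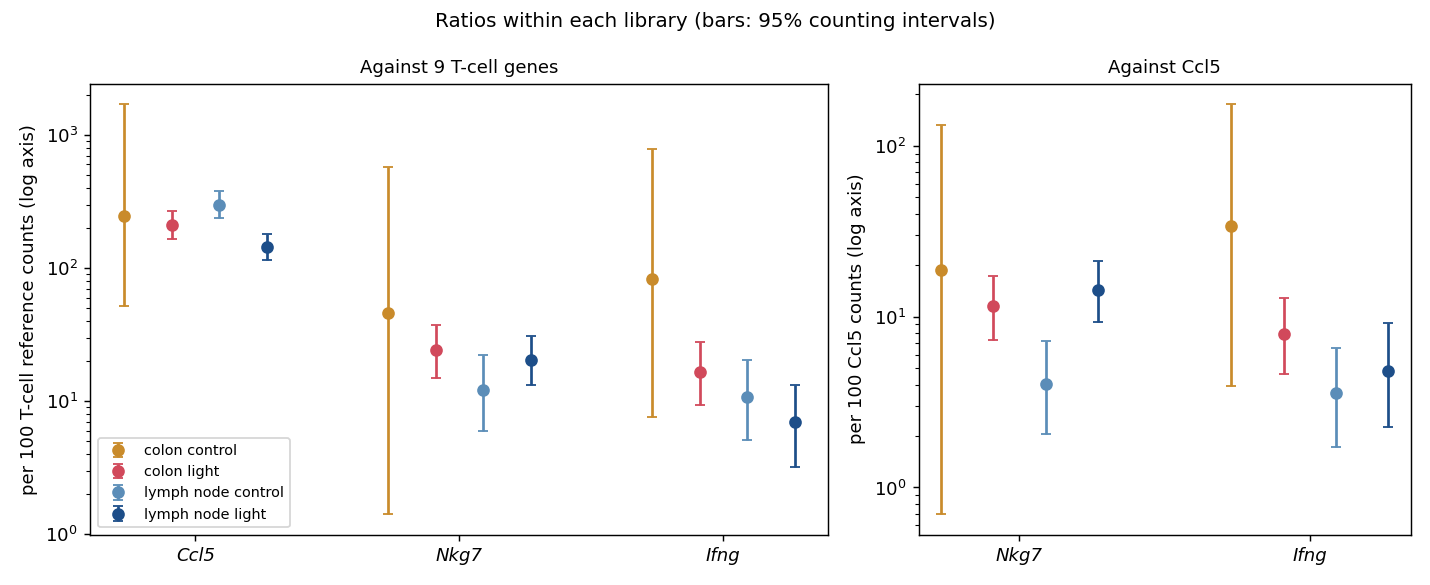
Counts of each gene per 100 counts of the 9 T-cell reference genes (left) and per 100 Ccl5 counts (right), on log axes, for the 4 libraries with 95% counting intervals. Nkg7 per 100 Ccl5 counts is lowest in the LN control (4.03) and, with all columns kept, its interval does not overlap those of the light libraries. The colon control intervals are the widest throughout.

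The light-treated libraries compare colon with lymph node among exposed mice. Ccl5 was lower in the colon by CPM, at 5540 against 9814 (-0.82, -1.11 to -0.54), and Nkg7 at 638 against 1404 (-1.12, -1.97 to -0.32). Ifng was at 440 against 474 (-0.10, -1.32 to 1.19), with an interval that included a 2-fold change in either direction. The median over 302 genes was -0.32. Past 2-fold, Nkg7 alone of the 3 genes was lower and none was higher, beside 32.8% of tested genes in either direction, 19.2% lower and 13.6% higher. The Nkg7 ratio was under 2-fold, at -0.58, with median-of-ratios scaling and at -0.75 with totals taken without ribosomal RNA genes and Gm12374. With only the barcodes on the sheet, most of them named for other groups, it was -0.81. The Ifng ratio was positive under the first 2 of these settings, at 0.42 and 0.26, and was 0.007 with each recovered molecule counted once. Of the 5 T-cell reference genes that passed the filter, 4 were likewise past 2-fold lower in the colon; the median of the 5 was -1.64.

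Set against those T-cell genes the direction turned for Ccl5, and Ifng stood higher in the colon. Per 100 reference counts Ccl5 was higher in the colon light than in the LN light library, 209 against 143 (0.55, 0.09 to 1.00), and Ifng was 16.6 against 6.93 (1.26, 0.07 to 2.45). Nkg7 was at 24.1 against 20.5 (0.23, -0.62 to 1.08). The changes of Ccl5 and Ifng shrank to 0.05 and 0.39 with only the 16 barcodes of the sheet. Of those, 13 in the colon light and 11 in the LN light library are named for other groups. With each recovered molecule counted once, the changes were 0.41 for Ccl5, 1.25 for Ifng and -0.29 for Nkg7, so no direction holds for Nkg7. Myeloid markers together made up 0.203% of colon light counts against 0.0507% of LN light counts, with Lyz2 at 1198 against 293 CPM and Cd68 at 0 against 73.0 CPM. Their part in these ratios was not tested.

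Light against control in the colon compared libraries of unlike content. Ccl5 was at 5540 CPM after light and 1052 CPM in the control, a log2 ratio of 2.37 (1.29 to 3.79), and Nkg7 was at 638 and 196 CPM (1.60, -0.72 to 6.28). Ifng, at 440 and 357 CPM (0.29, -1.69 to 3.25), had fewer than 20 molecule-equivalents over both libraries, and its ratio was -0.009 with the deeper library thinned. The median over 215 genes was 2.20. Both genes that passed the filter were past 2-fold higher, as were 75.8% of all tested genes, with 14.4% lower and 90.2% in either direction. The share past 2-fold among the 3 genes is therefore near the background. Per 100 T-cell reference counts Ccl5 changed by -0.23 (-2.32 to 1.86).

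Between the control libraries the Ccl5 ratio of colon to lymph node was -4.54 (-6.01 to -3.52), from 1052 and 25735 CPM. Nkg7 at -2.12 (-7.05 to 0.17) and Ifng at -1.24 (-4.38 to 0.77) were under the filter. The median over 89 genes was -2.18, and 67.4% of tested genes were past 2-fold lower, 29.2% higher and 96.6% in either direction. The content of the colon control library cannot be told apart from tissue in this comparison, nor from light in that of the colon libraries.

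**Figure D4:**
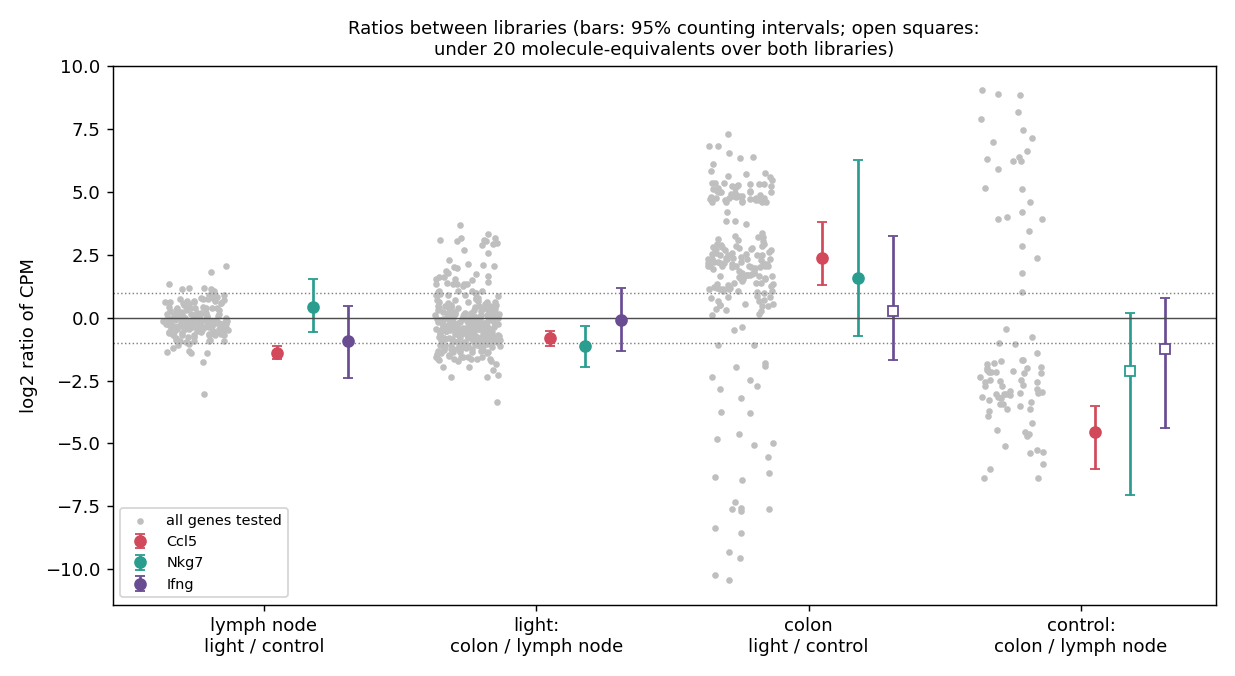
Log2 ratios of CPM for Ccl5, Nkg7 and Ifng in the 4 comparisons, with 95% counting intervals, beside all genes with at least 20 molecule-equivalents (grey); dotted lines mark 2-fold. In the lymph node Ccl5 lies at -1.39 beside a grey median of -0.16, while in both comparisons with the colon control the grey points themselves lie mostly past 2-fold.

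Other chemokines were scarce beside Ccl5. Of 33 CC and CXC chemokine ligands, 12 had a count in any library and 7 reached 3 molecule-equivalents in at least 1. Ccl4, another chemokine of activated T cells, was at 105 CPM in the colon light, 102 in the LN control and 49.6 in the LN light library. Cxcl10, an interferon-gamma-induced ligand of Cxcr3, was at 144 CPM in the colon light and 236 in the LN control, and was listed at 0 in the other libraries. Ccl6 was at 128 CPM in the colon light and 95.4 in the LN light. Cxcl9, Cxcl2 and Cxcl16, at 121, 175 and 127 CPM, were counted only in the colon light library, the deepest. Only Ccl5 of the list passed the filter in any comparison.

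Homing receptors also rested on few molecules. Of 13 genes in that list 10 had a count and 3 reached 3 molecule-equivalents. Cxcr6, a receptor of tissue-homing effector T cells, was at 98.0 CPM in the colon light, 524 in the LN control and 403 in the LN light library, and Ccr2 at 86.8, 422 and 293 CPM in the same order. For Cxcr6 the colon light to LN light ratio was -1.87 (-4.24 to -0.14), and for Ccr2 it was -1.58 (-4.19 to 0.40), an interval that included 0. Ccr7, which guides naive cells to lymph nodes, was counted only in the colon control, at 798 CPM from 4.92 molecule-equivalents.

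Regulators of Ccl5 transcription were measured but shallow. All 7 genes of the list had a count and 5 reached 3 molecule-equivalents. Klf13, a factor that drives late Ccl5 transcription in T cells, was at 113, 161, 0 and 106 CPM in the colon control, colon light, LN control and LN light libraries. Rel was at 288 CPM in the LN control and 57.1 in the LN light (-1.85, -7.40 to 1.06), Irf1 at 314 and 182 (-0.70, -3.35 to 1.78) and Nfkb1 at 133 and 182 (0.37, -2.62 to 4.60). Irf3 was at 101 CPM in the colon light and 18.7 in the LN light library. None of these passed the filter in any comparison.

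Cytotoxic granule genes besides Nkg7 gave a mixed picture in the lymph node. Of 20 genes 18 had a count, 9 reached 3 molecule-equivalents and 2 passed the filter in that comparison, Nkg7 and Srgn, neither past 2-fold. Srgn, the granule proteoglycan serglycin, was at 1074 CPM in the control and 773 after light (-0.46, -1.64 to 0.73). Cst7, which encodes an inhibitor of granule cathepsins, was at 604 and 68.3 CPM (-2.67, -7.39 to -0.47), below the filter. Gzmb, the effector protease granzyme B, was at 90.9 CPM in the colon light, 102 in the LN control and 86.1 in the LN light library. Serpinb9, Serpinb6b, Ctsc, Fasl and Rab27a were at 197, 150, 139, 97.0 and 119 CPM in the colon light library and at 0 to 91.6 CPM in the lymph node libraries. For colon light against LN light none of them passed the filter, and all their intervals included 0. The 2 genes of the list that passed there were not higher in the colon, with Nkg7 at -1.12 and Srgn at -0.10 (-1.04 to 0.88), the latter from 718 and 773 CPM.

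Genes of the Th1 programme besides Ifng included Id2, a transcriptional regulator of effector cells, at 1900 CPM in the LN control, 1402 in the LN light and 522 in the colon light library. Its log2 ratio was -0.43 (-1.29 to 0.44) from control to light in the lymph node and -1.40 (-2.31 to -0.56) from lymph node to colon after light. The interleukin-18 receptor genes Il18r1 and Il18rap were at 775 and 437 CPM in the LN control and 516 and 153 CPM in the LN light, with intervals that included 0. Bhlhe40, a factor that supports cytokine production, was at 292 CPM in the colon light library and listed at 0 in the LN light, with an interval above 0.46. Zeb2 was at 280 against 109 CPM, Stat4 at 211 against 136, Runx3 at 198 against 41.2 and Il12rb2 at 150 against 0 in those libraries, with intervals that included 0. Neither Bhlhe40 nor any of these passed the filter there. Il18r1 did and was at 326 against 516 CPM (-0.64, -1.95 to 0.66), while Il18rap, under the filter, was at 98.5 against 153. Over the 3 list genes that passed, the median was -0.64 beside -0.32 over all genes, with 1 past 2-fold lower and 0 higher. Of 16 genes in this list 14 had a count, and in the lymph node 2 passed the filter, neither past 2-fold. Tbx21, the master regulator of Th1 cells, was counted only in the colon control, at 106 CPM, under the floor.

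The genes downstream of interferon-gamma were all counted, 19 of 19, and 13 reached 3 molecule-equivalents. The receptor chain Ifngr1 was at 538 CPM in the colon light, 393 in the LN control and 387 in the LN light library, and Jak1 at 467, 349 and 425 CPM. In the lymph node 2 genes passed the filter, neither past 2-fold: B2m, the light chain of MHC class I, at 3186 CPM in the control and 1988 after light (-0.67, -1.36 to 0.01), and Psmb8, an immunoproteasome subunit, at 585 and 719 CPM (0.29, -1.11 to 1.87). Their median was -0.19 beside -0.16 over all genes. Between the light libraries 4 passed the filter and none was past 2-fold, with a median of -0.17 beside -0.32. Gbp2 and Tap1, at 233 and 271 CPM in the colon light library, were at 58.0 and 257 CPM in the LN light. Gbp3 was at 129 against 32.7 CPM, Irf8 at 113 against 111 CPM, Jak2 at 69.9 against 148 CPM. None of Gbp2, Tap1, Gbp3, Irf8 and Jak2 passed the filter between the light libraries, and all their intervals included 0.

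Of 16 other T-cell cytokines 6 had a count and 2 reached 3 molecule-equivalents. Ltb, which encodes lymphotoxin beta, was at 1215 CPM in the LN control and 341 after light (-1.74, -3.38 to -0.42), and it was the only gene of that list to pass the filter there. Il21 was at 150 CPM in the colon light library and listed at 0 elsewhere.

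Markers of CD8 and gamma-delta T cells were near 0, whereas some myeloid markers were not in the colon light library. Of the CD8 markers Cd8a and Cd8b1, neither had a count in the lymph node libraries or in the colon control, and Cd8b1 came to 0.631 molecule-equivalents in the colon light library. Of 7 gamma-delta T-cell markers only Trgc1 had a count, 0.712 molecule-equivalents in the colon light. Of 12 natural killer and innate lymphoid markers 5 had a count, with sums of 4.95, 6.25, 1.44 and 3.00 molecule-equivalents in the colon control, colon light, LN control and LN light libraries. Ncr1 and Klrb1c, which define natural killer cells, were at 0 in all 4, and the colon control sum was Il1rl1 alone. Klrd1 of the same list came to 1.30 molecule-equivalents in the LN light and 0.631 in the colon light library. Klrk1 came to 1.93 in the colon light library, and both genes were at 0 in the control libraries. Of 12 myeloid markers 7 had a count, with 3.81, 80.8, 3.16 and 10.3 molecule-equivalents in the same order. In the colon light library 5 of them had a count, with Lyz2 at 47.8 and Fcer1g at 18.3 molecule-equivalents. Cd68 was at 0 there, and came to 1.10 in the LN control and 1.49 in the LN light library. The colon light sum stands beside 105.5 for the 9 T-cell reference genes in that library. B-cell markers summed to 0.706 to 3.72 molecule-equivalents, platelet markers to 0 to 2.05, and 0 of 9 epithelial markers had a count. Cd4 itself was at 186, 478 and 334 CPM in the colon light, LN control and LN light libraries, from only 7.41, 5.48 and 6.81 molecule-equivalents. At this depth a marker at 0 does not show that its cells were absent.

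The genes whose levels over the libraries were most like each member were found by the root-mean-square difference of centred log2 CPM, among named genes that reached 20 molecule-equivalents. Over the 3 libraries without the colon control, which left 272 genes, Oaz1 (0.08), Ndufa6 (0.12), Psma2 (0.18), Fam104a (0.20) and Tsc22d4 (0.21) were nearest to Ccl5. Lyst (0.03), which encodes a regulator of lysosome-related granules, Gnai2 (0.07), Enpep (0.07), Psmb8 (0.08) and H2-K1 (0.08) were nearest to Nkg7. Hcst (0.04), an adaptor of activating receptors, Tma7 (0.05), Arpc3 (0.07), Cox5b (0.07) and Tmsb10 (0.08) were nearest to Ifng. The 3 members were not near each other, with Ccl5 and Nkg7 apart by 0.80, Nkg7 and Ifng by 0.57 and Ccl5 and Ifng by 0.49.

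Over all 4 libraries, which left 298 genes, Psma2, Oaz1, Gimap3, S100a11 and Tsc22d4 were nearest to Ccl5, at 0.33 to 0.38. Gnai2 (0.07), Gimap4, G3bp2, Cfl1 and Tmsb4x (0.20) were nearest to Nkg7, and Atp5h (0.13), Prrc2c, Hsp90b1, Iqgap1 and Fkbp3 (0.27) to Ifng. With 3 or 4 libraries, and few molecules for several of these genes, the likeness is a description.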

How the data were processed

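Per the labels' protocols, the primer for reverse transcription of poly(A) RNA carried a barcode of 7 bases and a molecular identifier of 8. The submitters' processing notes name mm10, STAR 2.5.1a and FastQC; how reads were counted is not given there. The authors' deposited tables hold raw counts per gene and barcode column. An unnamed last line, 50.0% of counts in both lymph node tables, was left out, as were the repeated rows of Foxp3 (all tables) and of Cd3d, Cd3e, Cd3g and Cd4 (colon control).

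Counts were summed over columns. Rows were solved as non-negative sums of column patterns shared by at least 2 genes (97.4% to 99.4% of rows exact), and sums were divided by the size-weighted columns per molecule (70.3, 49.1, 84.6 and 52.4) to give molecule-equivalents. Log2 ratios used a prior count of 0.5 scaled to depth and a filter of 20 molecule-equivalents over both libraries. Intervals are Clopper-Pearson or exact Poisson intervals at 95%. Those of changes in within-library ratios and of differences between log2 ratios are normal on the log scale. On simulated data for LN light against control (6884 genes, 100 simulations), intervals covered 96.5% of unchanged, 96.3% of 2-fold and 96.9% of 4-fold changed genes; simulated rows of 250 molecules were recovered to within 9. No p-value was computed, each group being 1 library.

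The 3 members, the gene lists and the comparisons were chosen with earlier results of these data known. Named were the members, list genes with at least 3 molecule-equivalents in a library, marker genes needed to describe their list, and the 5 genes nearest in level to each member. Tbx21, Ncr1, Klrb1c, Klrd1, Klrk1 and Cd68 were named after their values were seen. Some measured list genes are not reported here. The effect of 12 other processing choices, and of 2 chosen after seeing the data, is given at the end. Gene names matched GENCODE M21 for 10136 of 10291 genes. Software: matplotlib 3.10.9, pandas 2.3.3, scipy 1.17.1, numpy 2.4.6 under Python 3.11.15.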

Additional observations from a re-analysis of the deposited data

Results flagged for a closer look

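The log2 ratio of light to control had opposite signs in the colon and the lymph node for Ccl5 and for Ifng, and this difference was not tested, since each group is 1 library. For Ccl5 the colon ratio of 2.37 minus the lymph node ratio of -1.39 was 3.76, with a counting interval of 2.61 to 4.92. For Ifng the colon ratio of 0.29 minus the lymph node ratio of -0.91 was 1.20 (-1.18 to 3.58), the intervals of both ratios included 0, and the colon ratio was -0.009 with the deeper library thinned, so the opposite signs do not hold there. The colon ratios share the colon control library, in which the T-cell reference genes came to 2.65 molecule-equivalents and the median gene ratio was 2.20; its part in these differences was not tested.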

How the results depend on the processing

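No paired analysis was possible because each group has 1 library. Of 102 alternative values of the gene ratios 98 stayed inside their counting interval, as did all 22 values per 100 Ccl5 counts. The sign changed for Ifng only: from -0.10 to 0.42 with median-of-ratios scaling, 0.26 with the total without ribosomal RNA genes and Gm12374 and 0.007 with each recovered molecule counted once for colon light against LN light, and from 0.29 to -0.009 with the deeper library thinned for colon light against control. The Nkg7 ratio of colon light to LN light went from -1.12 to -0.58, -0.75 and, with sheet barcodes, -0.81, all under 2-fold. With median-of-ratios scaling the Ccl5 ratio was -0.91 for light against control in the lymph node and -0.28 for colon light against LN light. The latter was -0.45 with the total taken without ribosomal RNA genes and Gm12374, and -1.19 with only the barcodes on the sheet. The sheet setting takes in barcodes named for other groups and gives no value for the colon control. Leaving out each column block in turn, chosen after seeing the data, gave a LN light to control ratio of -1.66 to -0.65 for Ccl5, 0.33 to 0.64 for Nkg7 and -1.08 to -0.52 for Ifng. For colon light against LN light it gave -0.98 to -0.67 for Ccl5, -1.23 to -1.02 for Nkg7 and -0.49 to 0.01 for Ifng, the last crossing 0.

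Per 100 T-cell reference counts, a reference without Trbc2 gave 333 for Ccl5 and 38.3 for Nkg7 in the colon light, 515 for Ccl5 in the LN control, and 222 for Ccl5 and 31.7 for Nkg7 in the LN light library. A reference with Cd3d, Cd3e, Cd3g and Cd4 gave 108 for Ccl5 in the LN light. In the colon control it gave 19.4 for Ccl5 and 6.60 for Ifng, with the rows that repeat those of the LN control put back. These 2 values therefore do not measure the T-cell content of the colon control. Sheet barcodes gave 147 for Ccl5 and 9.02 for Ifng in the colon light.

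Counts of genes past 2-fold depended on the filter. For light against control in the lymph node (18 genes) there were 31 with median-of-ratios scaling, 4068 with no filter and 4 at 100 molecule-equivalents or more. For colon light against LN light (99) there were 60 with the deeper library thinned, 5389 and 5 under those filters, for colon light against control (194) 40, 5502 and 25, and for the control libraries (86) 52, 4617 and 12. Depth limits Nkg7 and Ifng most: in the lymph node their intervals include both 0 and a 2-fold change.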
